A study of Mus musculus with 12 samples.

Results

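A set of p53 and growth arrest response genes, chosen by gene name, were followed in the liver RNA-Seq of 12 male C57BL/6 mice. They were Cdkn1a, Ccng1, Btg2, Mdm2, Trp53inp1, Gadd45a, Gadd45b, Gadd45g, Bax and Sesn2, and all 10 were found, each once, among the 55385 features of the deposited table. Values are TPM, a transcript abundance corrected for length and scaled to a total of 1000000 in each sample, so levels can be compared between genes, but the read depth is unknown. The 3 groups held 4 mice each. The labels name them GULL_control, mGULL_knockdown and hGULL_rescue, and the agents, sex and age are those of the study's methods. Ad-Ctrl mice received the control adenoviruses Lac and pAdv5, and Ad-shmGULL mice (the knockdown group) received an adenovirus with an shRNA against the mouse lncRNA mGULL together with pAdv5. Ad-shmGULL+hGULL mice (the rescue group) received the shRNA virus with one expressing the human lncRNA hGULL. All were 7 weeks old, carried 500000000 plaque-forming units of adenovirus in total and were killed on day 7, so no group was free of virus. The methods name the injection as intravitreal in one place and as retro-orbital in another. The level of mGULL itself was not analysed here.

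p53, encoded by Trp53, is a transcription factor that is stabilized by DNA damage and other stress and binds DNA at response elements made of a pair of short decamers. Among its classic targets are Cdkn1a (p21), which blocks cyclin-dependent kinases, and Mdm2, the ubiquitin ligase that returns p53 to a low level. The Gadd45 proteins bind cell cycle and stress kinase proteins and respond to p53 and to other stress or growth signals, while Trp53inp1, Bax and Sesn2 act in the p53 stress response, in cell death and in nutrient signaling. In the resting adult liver most hepatocytes are outside the cell cycle, and Cdkn1a is known for restraining their entry into it.

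The promoters of the members were searched for known motifs. RefSeq promoters (build GRCm38.p6, the build of the deposited values) were found for 9 members, with 2 starts for Cdkn1a, and Trp53inp1 had none listed. Each covers 250 bases before the start and 50 after it, and both strands were searched. The p53 decamer, a motif of 10 bases, occurred in 5 of these 10 promoters, those of Cdkn1a, Ccng1, Mdm2, Bax and Gadd45a, and in 8.36% of the 32851 promoters in the RefSeq table. The full CREB site TGACGTCA occurred only in Btg2, against 1.79% of all promoters, and its shorter form TGACG in Btg2, as part of that site, and in Mdm2, against 20.8%. The TATA box TATAAA occurred in Gadd45b and Gadd45g, against 13.6%. Only exact matches to the consensus letters of the decamer were counted, so near matches are missed and not marked. The upstream Cdkn1a start, 2790 bases from the other one, had 2 decamers, beginning 73 and 51 bases before it, and the downstream start had none in its window. These 2 decamers are not adjacent to each other. The 10 bases directly after the second depart from the consensus at their first base only and are not marked. The stretch of 250 bases before the upstream Cdkn1a start (chr17:29090729-29090978, plus strand) and that before the Ccng1 start (chr11:40755287-40755536, minus strand) are shown with the decamers in capitals, since these members had the smallest unadjusted p, among those with a decamer, in both comparisons with control.
Cdkn1a: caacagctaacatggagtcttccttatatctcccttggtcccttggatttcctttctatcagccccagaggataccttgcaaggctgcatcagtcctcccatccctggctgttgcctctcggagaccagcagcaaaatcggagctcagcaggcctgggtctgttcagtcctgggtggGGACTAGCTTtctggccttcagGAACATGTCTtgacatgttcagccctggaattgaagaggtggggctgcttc
Ccng1: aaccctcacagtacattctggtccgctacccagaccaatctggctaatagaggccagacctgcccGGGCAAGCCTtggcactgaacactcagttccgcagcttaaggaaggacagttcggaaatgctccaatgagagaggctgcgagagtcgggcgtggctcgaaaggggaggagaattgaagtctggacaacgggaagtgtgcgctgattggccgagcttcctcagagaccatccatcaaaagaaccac
The decamers of Mdm2 (chr10:117710915-117710964, minus strand), Bax (chr7:45467070-45467119, minus strand) and Gadd45a (chr6:67037418-67037467, minus strand) are shown in capitals with 20 bases on each side, for comparison with those of Cdkn1a and Ccng1.
Mdm2: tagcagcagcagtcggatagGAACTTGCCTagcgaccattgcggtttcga
Bax: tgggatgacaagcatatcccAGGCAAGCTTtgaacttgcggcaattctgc
Gadd45a: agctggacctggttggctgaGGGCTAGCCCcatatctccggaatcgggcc
The CREB site of Btg2 (chr1:134079294-134079341, minus strand) and the TATA boxes of Gadd45b (chr10:80930025-80930070, plus strand) and Gadd45g (chr13:51846628-51846673, plus strand), in capitals with the same flanks, show the promoters of the members without a decamer that held another of the motifs.
Btg2: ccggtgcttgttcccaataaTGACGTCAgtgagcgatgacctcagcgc
Gadd45b: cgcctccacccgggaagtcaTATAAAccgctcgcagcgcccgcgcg
Gadd45g: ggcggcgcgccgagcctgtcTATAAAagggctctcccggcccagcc
These matches are descriptions of the letters and were not tested for binding.

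In Ad-Ctrl livers the members spanned a wide range of levels. Trp53inp1 was the highest, at 125 ± 11.5 TPM (SD, n = 4), followed by Gadd45g at 79.7 ± 9.13 TPM (SD, n = 4), and the 4 mice of each did not overlap those of the next gene in order. Ccng1 (41.4 TPM) and Mdm2 (35.3 TPM) came next and overlapped each other. Btg2, Bax, Sesn2 and Cdkn1a lay between 22.3 and 17.0 TPM on average, each overlapping its neighbor in the order. Gadd45b (7.38 TPM) and Gadd45a (3.495 TPM) were the lowest and also overlapped each other. All 10 passed the filter of a mean of at least 1 TPM over the 12 mice.

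Trp53inp1 was the member with the clearest change. Its mean fell by 30.1% after knockdown, from 125 to 87.2 TPM, and was 138 TPM in the rescue group. The means of the p53 targets Cdkn1a and Ccng1 were above control in both groups that carried the shRNA, and Ccng1 alone passed the test, in the rescue group. Of the 10 members, 1 had a Benjamini-Hochberg adjusted p under 0.05 after knockdown (limma, over all 16378 genes tested), and it was lower, against 3.23% of all tested genes in either direction and 0.794% that were lower. The study's threshold asks for an unadjusted p under 0.05 and a log2 fold change of more than 0.5 in size. By it 4 members passed after knockdown, against 7.65% of all genes, with 3 higher (5.35% of all genes) and 1 lower (2.30%). In rescue against knockdown 0 members and 0% of all genes had an adjusted p under 0.05 with limma, and 2 members had an unadjusted p under 0.05, against 10.7%. Trp53inp1 alone of the members passed the study's threshold there, and was higher, against 2.33% of all genes. In rescue against control 1 member, Ccng1, had an adjusted p under 0.05, against 2.15% of all genes, of which 2.12% were higher. There 5 members passed the study's threshold, against 7.49% of all genes, with 4 higher (6.84%) and 1 lower (0.641%). With 10 members, each single gene is 10% of the list, so these shares are coarse.

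**Figure D1:**
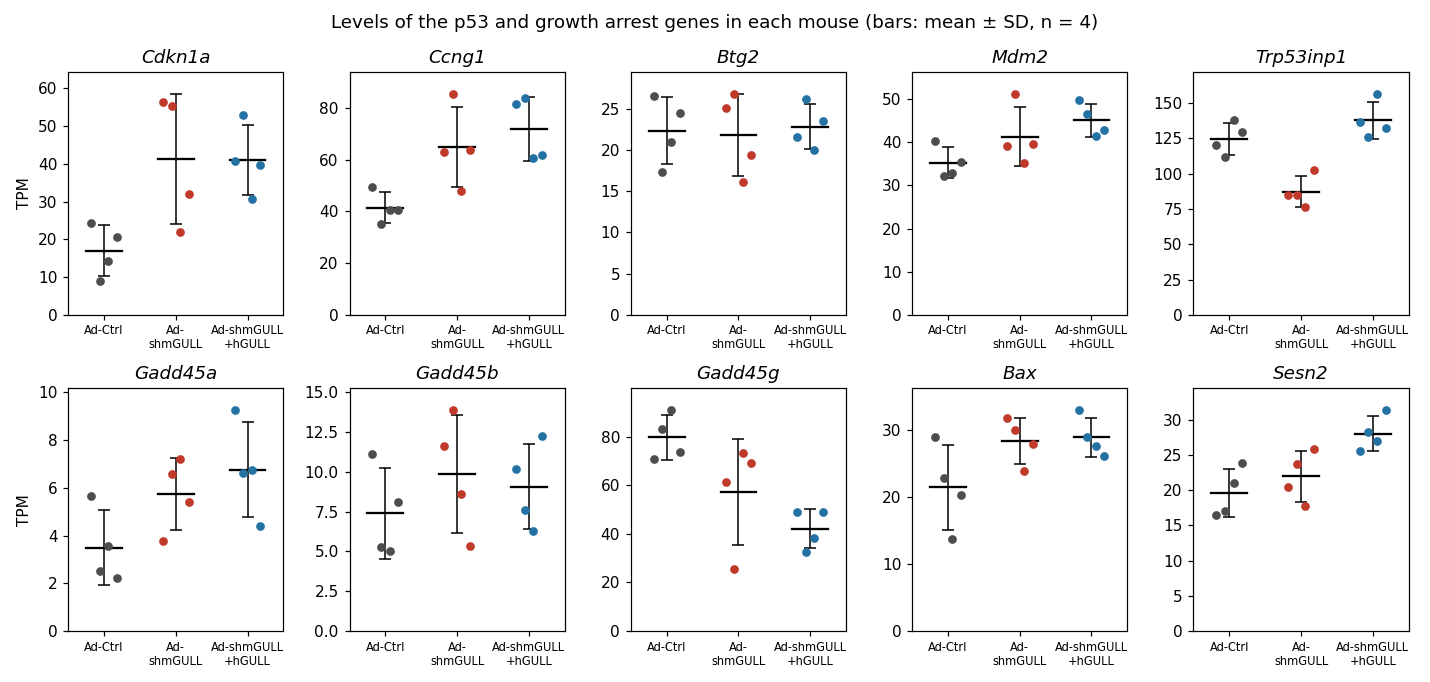
Level of each of the 10 genes in TPM (vertical axis, starting at 0) in the 4 mice of each group (points, in replicate order), with the mean and SD as bars. The 4 Ad-shmGULL mice lie below all other mice for Trp53inp1, at 76.4 to 102 TPM, and the 4 Ad-shmGULL+hGULL mice lie above all Ad-Ctrl mice for Cdkn1a, Ccng1, Mdm2 and Sesn2.

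The median log2 fold change over all tested genes was not 0. It was 0.087 after knockdown, 0.093 between rescue and knockdown and 0.17 between rescue and control, a shift that scaling by the median of ratios removes. The median of the 10 members was 0.29, 0.11 and 0.40 in the same order, and 0.19, 0.016 and 0.20 with that scaling. For single members, the difference relative to the median of all genes is therefore given where it matters.

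Cdkn1a (chromosome 17, 29090979 to 29100722) encodes p21, the cyclin-dependent kinase inhibitor that p53 induces. Its level was 24.3, 8.96, 14.2 and 20.5 TPM in the 4 Ad-Ctrl mice, 56.3, 55.3, 21.8 and 31.98 TPM in the Ad-shmGULL mice and 40.8, 52.98, 30.7 and 39.6 TPM in the rescue mice. The knockdown values split into 2 high and 2 lower mice, the lowest of which lay within the control range, while every rescue mouse lay above every control mouse. The knockdown mean was 2.43-fold the control mean, a log2 difference of 1.22 (SE 0.33, 95% confidence interval 0.51 to 1.93, limma adjusted p = 0.0624), which passed the study's threshold but not the adjusted one. For rescue against control it was 1.28 (SE 0.33, limma adjusted p = 0.0571), or 1.11 above the all-gene median. With median-of-ratios scaling that difference was 1.09 (limma adjusted p = 0.156, in a range of 0.0309 to 0.176 over the alternatives). Against knockdown the rescue group differed by 0.065, with a 95% confidence interval from -0.65 to 0.78. Over the alternatives the adjusted p after knockdown ran from 0.0216 to 0.163. It was under 0.05 without Ad-Ctrl replicate 1 (0.035) or Ad-shmGULL replicate 3 (0.0216), and highest without Ad-Ctrl replicate 2 (0.163).

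Ccng1 (chromosome 11, 40748552 to 40755309) encodes cyclin G1, a p53 target that recruits phosphatase 2A to Mdm2. It stood at 49.5, 35.03, 40.4 and 40.6 TPM in Ad-Ctrl, at 62.8, 85.4, 47.9 and 63.9 TPM in Ad-shmGULL and at 81.5, 83.9, 60.6 and 61.9 TPM in Ad-shmGULL+hGULL. All rescue mice were above all control mice, and 1 knockdown mouse lay within the control range. Ccng1 rose between control and rescue by a log2 fold change of 0.78 (SE 0.17, limma adjusted p = 0.0426), or 0.61 above the all-gene median. This call was lost in 8 of the 12 fits that left out a mouse (without Ad-Ctrl replicate 2, 3 or 4, Ad-shmGULL replicate 4 or any rescue mouse), where the adjusted p reached 0.151 (0.0218 to 0.151 over all alternatives), and with median-of-ratios scaling the log2 fold change was 0.58 (adjusted p = 0.109). After knockdown the difference was 0.62 (SE 0.17, limma adjusted p = 0.0649), and the adjusted p was 0.0490 with median-of-ratios scaling and ran from 0.0218 to 0.172 over the alternatives. The rescue and knockdown groups differed by 0.16, with a 95% confidence interval from -0.21 to 0.52.

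Btg2 (chromosome 1, 134074865 to 134079155), an antiproliferative gene that also responds quickly to growth signals, showed no such difference. It ranged from 17.3 to 26.6 TPM in Ad-Ctrl, from 16.1 to 26.7 TPM in Ad-shmGULL and from 19.9 to 26.2 TPM in the rescue group. The groups overlapped almost wholly. After knockdown its log2 fold change was -0.04 (SE 0.17), with a 95% confidence interval from -0.40 to 0.32, and its sign depended on which mouse was left out.

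Trp53inp1 (chromosome 4, 11156441 to 11174379) encodes a stress-induced nuclear protein that binds p53 and also takes part in autophagy. It was at 120.0, 111, 138 and 129 TPM in Ad-Ctrl, at 84.8, 85.2, 76.4 and 102 TPM in Ad-shmGULL and at 137, 126, 156 and 132 TPM in Ad-shmGULL+hGULL. All 4 knockdown mice were below all mice of both other groups, and the control and rescue mice overlapped. The fall after knockdown was -0.51 on the log2 scale (SE 0.10, limma adjusted p = 0.0231), or -0.60 against the all-gene median. Its adjusted p was 0.0742 without Ad-Ctrl replicate 3, 0.0597 without Ad-Ctrl replicate 4, 0.0618 without Ad-shmGULL replicate 2 and 0.0810 with only the 2 groups fitted, while the log2 fold change stayed between -0.62 and -0.45 under all alternatives. Rescue against knockdown gave a log2 fold change of 0.66 (SE 0.10), whose unadjusted p ranked 4 among 16378 genes, but the limma adjusted p was 0.117. For rescue against control it was 0.14 (95% confidence interval -0.08 to 0.37), or -0.03 against the all-gene median. The knockdown mice enter both of the first comparisons, so the opposite signs are not independent of each other.

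Mdm2 (chromosome 10, 117688875 to 117710758), the feedback inhibitor of p53, was at 40.3, 32.3, 33.0 and 35.5 TPM in Ad-Ctrl, at 39.1, 51.2, 35.3 and 39.7 TPM in Ad-shmGULL and at 49.9, 46.5, 41.4 and 42.8 TPM in the rescue group. The rescue mice lay above all control mice by a narrow margin, and the knockdown mice overlapped both groups. The log2 fold change was 0.21 after knockdown (SE 0.11, limma adjusted p = 0.316) and 0.35 between rescue and control (SE 0.11, limma adjusted p = 0.0987). With median-of-ratios scaling the latter was 0.15 (adjusted p = 0.401, in a range of 0.0429 to 0.401 over the alternatives), less than its value as deposited by more than 1.5 times.

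**Figure D2:**
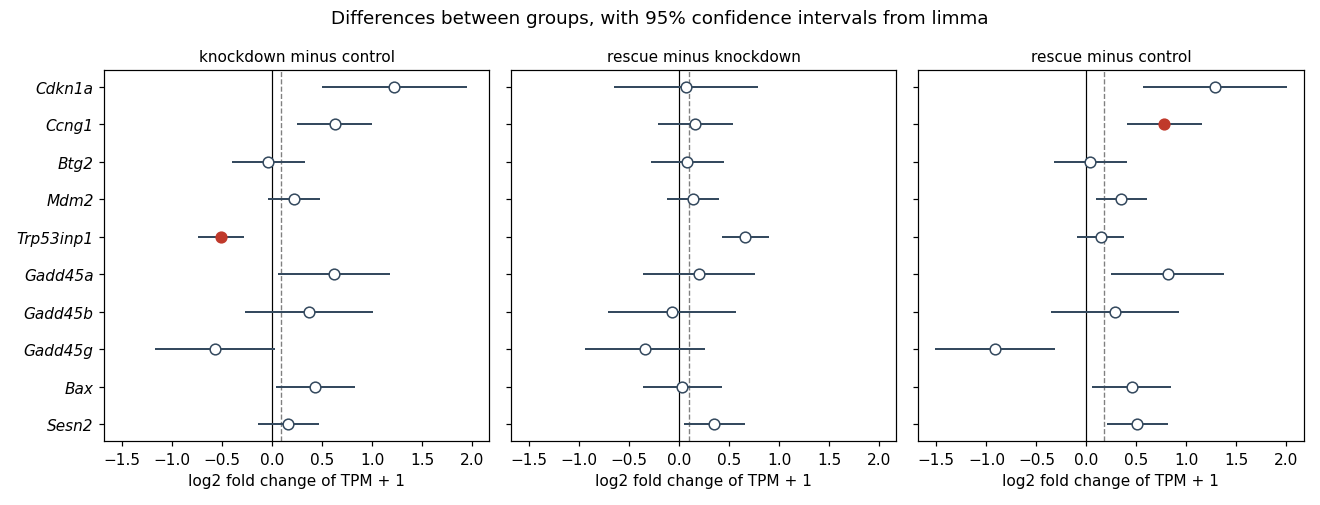
Log2 fold change of TPM + 1 (horizontal axis) of each gene in the 3 comparisons, with 95% confidence intervals from limma, a solid line at 0 and a dashed line at the median of all 16378 tested genes. Filled points have an adjusted p under 0.05, which are Trp53inp1 after knockdown and Ccng1 between rescue and control.

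The 3 Gadd45 genes did not share a direction. Gadd45a (chromosome 6, 67035096 to 67037407) and Gadd45b (chromosome 10, 80930091 to 80932204) had higher means than control in both other groups and Gadd45g lower ones, although none of these had an adjusted p under 0.05. Gadd45a overlaps E230016M11Rik in the RefSeq annotation. The libraries were strand-specific, but whether the counting used strand is not given in the sources used here, so whether its values include reads of that gene is not known. Gadd45a stood at 5.67, 2.51, 3.56 and 2.24 TPM in Ad-Ctrl, at 3.78, 6.60, 7.23 and 5.40 TPM in Ad-shmGULL and at 9.25, 6.64, 6.75 and 4.41 TPM in the rescue group. The groups overlapped through the first control mouse, which was well above the other 3. The log2 fold change of Gadd45a was 0.62 after knockdown (SE 0.25, limma adjusted p = 0.196) and 0.81 between rescue and control (SE 0.25, limma adjusted p = 0.0914), both past the study's threshold. At these low levels the added 1 TPM draws the log2 fold change toward 0.

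Gadd45b ranged from 5.02 to 11.1 TPM in Ad-Ctrl, from 5.33 to 13.9 TPM in Ad-shmGULL and from 6.29 to 12.3 TPM in the rescue group, with a log2 fold change after knockdown of 0.36 (95% confidence interval -0.27 to 0.997). The spread between mice of a group was as large as any difference between the groups. Gadd45g (chromosome 13, 51846675 to 51848475), the most abundant of the 3 in liver, was at 70.9, 83.2, 90.9 and 73.7 TPM in Ad-Ctrl, at 61.3, 25.4, 73.2 and 69.1 TPM in Ad-shmGULL and at 48.9, 32.6, 38.2 and 48.8 TPM in Ad-shmGULL+hGULL. All rescue mice were below all control mice, and of the knockdown mice the second was far below the other 3. The log2 fold change of Gadd45g between rescue and control was -0.92 (SE 0.27, limma adjusted p = 0.0811), or -1.09 against the all-gene median, and it passed the study's threshold. After knockdown it was -0.57 (SE 0.27, limma adjusted p = 0.263), and -0.23 without Ad-shmGULL replicate 2.

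Bax (chromosome 7, 45461695 to 45466903), which forms pores in the outer mitochondrial membrane during cell death, was at 29.0, 22.9, 13.7 and 20.3 TPM in Ad-Ctrl, at 31.8, 30.0, 23.8 and 27.9 TPM in Ad-shmGULL and at 32.9, 29.0, 27.6 and 26.1 TPM in the rescue group. The highest control mouse lay within both other groups. The log2 fold change was 0.43 after knockdown (SE 0.18, limma adjusted p = 0.197) and 0.45 between rescue and control (SE 0.18, limma adjusted p = 0.144). Without Ad-Ctrl replicate 3, the lowest mouse, these were 0.24 and 0.27.

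Sesn2 (chromosome 4, 132492804 to 132510456), a sestrin that restrains mTORC1 when amino acids are short was at 16.5, 17.0, 21.0 and 23.8 TPM in Ad-Ctrl, at 20.5, 23.7, 17.7 and 25.8 TPM in Ad-shmGULL and at 25.5, 28.3, 27.0 and 31.3 TPM in Ad-shmGULL+hGULL. All rescue mice were above all control mice, and the knockdown mice overlapped the controls. The log2 fold change was 0.51 between rescue and control (SE 0.14, limma adjusted p = 0.0641), 0.35 between rescue and knockdown (SE 0.14, limma adjusted p = 0.417) and 0.16 after knockdown. With median-of-ratios scaling the first of these was 0.31 (adjusted p = 0.332, in a range of 0.0371 to 0.332 over the alternatives).

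Counted by overlap of the mice, 1 member was apart from control after knockdown (Trp53inp1, lower), against 2.06% of all tested genes that were lower. The same gene alone was apart in rescue against knockdown (higher), against 5.40% of all genes. In rescue against control 4 members were apart and higher (Cdkn1a, Ccng1, Mdm2 and Sesn2), against 21.4% of all genes, and 1 was apart and lower (Gadd45g), against 0.855%.

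**Figure D3:**
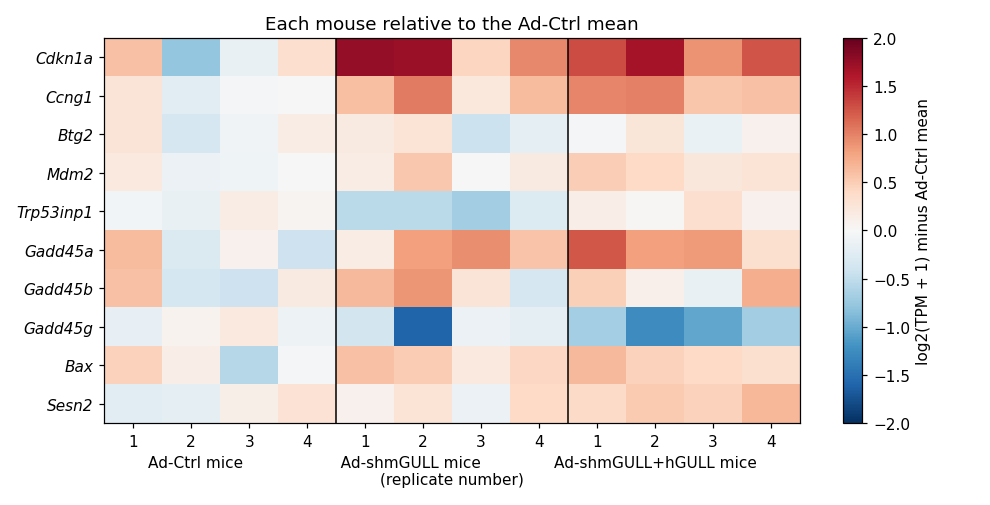
Each gene (rows) in each of the 12 mice (columns, by group and replicate number), as log2(TPM + 1) minus the Ad-Ctrl mean, with red above and blue below it. The third Ad-shmGULL mouse is the lowest of its group for 7 of the 10 genes and the first Ad-Ctrl mouse the highest of its group for 7.

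The mice of a group differed in a similar way for several members. Ad-Ctrl replicate 1 had the highest value of its group for 7 of the 10 members (Cdkn1a, Ccng1, Btg2, Mdm2, Gadd45a, Gadd45b and Bax), and Ad-Ctrl replicate 2 the lowest for 5. Ad-shmGULL replicate 3 had the lowest value of its group for 7 (Cdkn1a, Ccng1, Btg2, Mdm2, Trp53inp1, Bax and Sesn2). Without Ad-Ctrl replicate 1 or without Ad-shmGULL replicate 3, the members with an adjusted p under 0.05 after knockdown numbered 3 in each case, Cdkn1a, Ccng1 and Trp53inp1. They numbered 0 without Ad-Ctrl replicate 3 or 4 or Ad-shmGULL replicate 2. The members share each mouse's library.

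The list of further p53 targets, 35 genes beside the members, all tested, held genes that changed in both directions. After knockdown 5 rose and 1 fell at an adjusted p under 0.05, where 2.44% and 0.794% of all genes did, and the list's median log2 fold change was 0.27 against 0.087 for all genes. Eda2r, a member of the TNF receptor family, stood at 2.48 ± 1.11 TPM (SD, n = 4) in Ad-Ctrl, 7.86 ± 3.78 TPM (SD, n = 4) in Ad-shmGULL and 10.04 ± 2.10 TPM (SD, n = 4) with hGULL. Its knockdown log2 fold change was 1.29 (limma adjusted p = 0.0445). Phlda3, an inhibitor of Akt, stood at 4.04 ± 2.39 TPM (SD, n = 4), 12.8 ± 5.76 TPM (SD, n = 4) and 11.9 ± 3.94 TPM (SD, n = 4) in the same order, a log2 fold change of 1.46 after knockdown (limma adjusted p = 0.0445). Plk2, a stress-induced polo-like kinase, ranged from 6.96 to 8.94 TPM in Ad-Ctrl, from 11.8 to 24.6 TPM in Ad-shmGULL and from 15.7 to 20.9 TPM with hGULL, rising by 0.96 on the log2 scale after knockdown (limma adjusted p = 0.0181). The other 2 that rose were Aen, an apoptosis-associated nuclease, by 0.66 and Perp, a membrane protein of cell junctions, by 0.52. The one that fell was Plk3, from 151 ± 31.5 to 92.8 ± 5.02 TPM (SD, n = 4), by 0.67 on the log2 scale (limma adjusted p = 0.0319). Aen, Perp and Plk3 were named after their values were seen.

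In rescue against knockdown 0 of the 35 further targets had an adjusted p under 0.05 with limma, 0 passed the study's threshold and the median log2 fold change was 0.13 against 0.093 for all genes. In rescue against control 9 were higher at an adjusted p under 0.05, against 2.12% of all genes, with Eda2r at a log2 fold change of 1.70 (limma adjusted p = 0.0381), Gtse1 at 1.15 (0.0414) and Plk2 at 1.09 (0.0345). Gtse1, like Ckap2 in the same list, encodes a protein of the mitotic spindle and is high in dividing cells. With median-of-ratios scaling, 5 rose and 1 fell after knockdown, the same 6 genes as above, but only Plk2 remained between rescue and control. Of all 16378 genes, 683 and 11 had an adjusted p under 0.05 with that scaling, against 529 and 352 as deposited. For the 35 further targets the count after knockdown was 0 with only the 2 groups fitted and 1 with no filter on low values. It was 0 without Ad-Ctrl replicate 3 and 1 without Ad-Ctrl replicate 2 or 4 or Ad-shmGULL replicate 1, 2 or 4. It was 3 without rescue replicate 1, 3 or 4. The count of further targets between rescue and control was 0 without Ad-Ctrl replicate 2, 3 or 4, Ad-shmGULL replicate 4 or any rescue mouse, and 14 or 15 without another mouse. The Ccng1 call was lost in the same fits. How many of all genes were called in them is not given here.

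**Figure D4:**
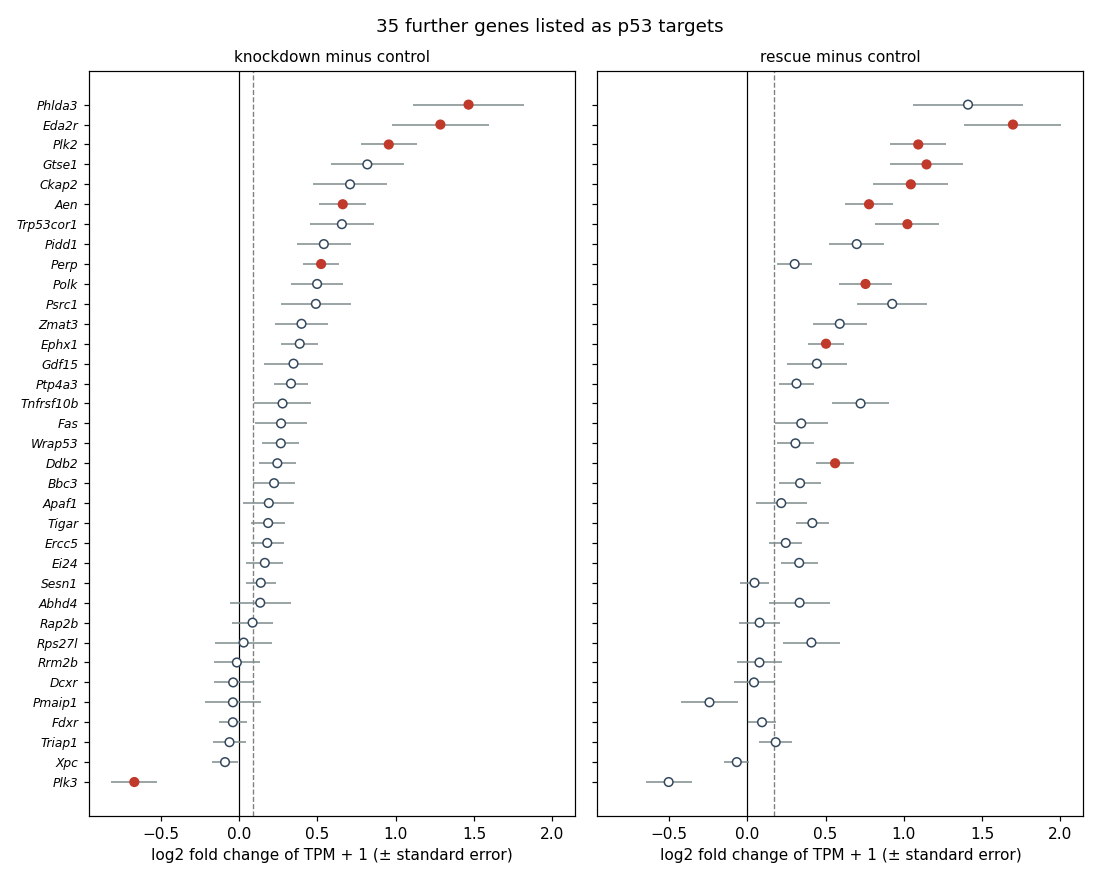
Log2 fold change of TPM + 1 (horizontal axis, with the SE) of the 35 further p53 targets, ordered by their change after knockdown, in knockdown minus control and rescue minus control, which share the control mice. Filled points have an adjusted p under 0.05, 6 in the left panel and 9 in the right, and the dashed line is the median of all tested genes.

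p53 itself and its regulators were also measured. Trp53, named after its values were seen, was 18.3 ± 3.11 TPM (SD, n = 4) in Ad-Ctrl, 20.6 ± 2.43 TPM (SD, n = 4) in Ad-shmGULL and 21.6 ± 2.48 TPM (SD, n = 4) with hGULL, differing by 0.17 on the log2 scale after knockdown (SE 0.13, limma adjusted p = 0.476). Its mRNA level does not measure the protein, which is regulated mainly by its stability. Of 15 tested genes in that list, 0 had an adjusted p under 0.05 in any of the 3 comparisons. The highest log2 fold change after knockdown was that of the checkpoint kinase Chek1 at 0.57 (limma adjusted p = 0.148), and the lowest that of the damage-response adaptor Trp53bp1 at -0.17 (limma adjusted p = 0.367). Among 19 tested relatives of the members (other kinase inhibitors, BTG and TOB proteins, sestrins and BCL2 proteins), 0 had an adjusted p under 0.05 in any comparison. Cdkn1c, the p57 kinase inhibitor, was at 0.98 (limma adjusted p = 0.0765) and Bak1, a pore former like Bax, at -0.43 (limma adjusted p = 0.137) after knockdown. With median-of-ratios scaling 1 of the 19, Bak1, was lower after knockdown at an adjusted p under 0.05. The 11 Gadd45 partners and stress kinases likewise held 0 such genes, with Cdk1 at 0.53 and Map2k6 at -0.46.

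Genes of proliferation were measured beside the growth arrest genes. Of 26 genes, 1 (Rrm2, a ribonucleotide reductase subunit) rose after knockdown at an adjusted p under 0.05, against 2.44% of all genes, and 7 were higher between rescue and control, against 2.12%. The study's threshold was passed by 12 and 23 of them, all higher, against 5.35% and 6.84% of all genes. The median log2 fold change of the list was 0.48 after knockdown and 0.83 between rescue and control, against 0.087 and 0.17 for all genes. Rrm2 was 25.9 ± 10.01 TPM (SD, n = 4) in Ad-Ctrl, 58.4 ± 17.0 TPM (SD, n = 4) in Ad-shmGULL and 63.6 ± 17.0 TPM (SD, n = 4) in the rescue group (log2 fold change after knockdown 1.16, limma adjusted p = 0.0363). Ccne2, cyclin E2, stood at 1.43 (limma adjusted p = 0.0388), Mcm6, a replicative helicase subunit, at 1.27 (0.0478) and Ccne1, cyclin E1, at 1.13 (0.0461) between rescue and control. With median-of-ratios scaling the counts were 1 and 0, and 8 and 19 passed the study's threshold. Of all 16378 genes, 683 and 11 had an adjusted p under 0.05 with that scaling. The share of all genes past the study's threshold with it is not given here. The 2 counts of proliferation genes at the adjusted threshold ran from 0 to 9 and from 0 to 22 over the fits that left out a mouse, both being highest without Ad-Ctrl replicate 1. The first was 0 without Ad-Ctrl replicate 2, 3 or 4, Ad-shmGULL replicate 1 or 2 or rescue replicate 1 or 3. The second was 0 without Ad-Ctrl replicate 2, 3 or 4, Ad-shmGULL replicate 4 or any rescue mouse, and 11 or more without another mouse. The fits that gave 0 here were those in which the further p53 targets also numbered 0.

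In whole liver, a change in the number of cells of a type and a change in RNA per cell cannot be told apart. The 9 hepatocyte markers summed to 85256 to 120494 TPM in Ad-Ctrl, 87320 to 103248 TPM in Ad-shmGULL and 76416 to 90986 TPM in the rescue group, and none of them was at 0. Alb made up most of this sum, with a mean of 59560 of 100169 TPM in Ad-Ctrl and 51119 of 83663 TPM in the rescue group. Between rescue and control 3 of the 9 (Hnf4a, Apob and Asgr1) had a positive log2 fold change, so the sum does not describe each marker. None of the 9 had an adjusted p under 0.05 with limma. The study's threshold was passed by 2 (Apoa1 and Tat), lower, in each comparison with control, against 2.30% of all genes after knockdown and 0.641% between rescue and control. Of 5 endothelial markers 1 (Stab2) rose after knockdown at an adjusted p under 0.05, against 2.44% of all genes. The sum of the 5 was 85.0 to 149 TPM in Ad-Ctrl, 141 to 185 TPM in Ad-shmGULL and 136 to 166 TPM in the rescue group. No gene of the lists for T and NK cells, macrophages, neutrophils, B cells, stellate cells, cholangiocytes or erythroid cells had an adjusted p under 0.05 in any comparison. Of these, Marco passed the study's threshold, lower, in both comparisons with control, against 2.30% and 0.641% of all genes. Of the 8 macrophage markers, 3 had a positive log2 fold change after knockdown and 4 between rescue and control. The sum of the 8 averaged 415 TPM in Ad-Ctrl, 433 TPM in Ad-shmGULL and 431 TPM in the rescue group. Sox9 passed the study's threshold after knockdown (higher, against 5.35% of all genes), while the cholangiocyte markers Krt19 and Epcam were at -0.08 and -0.04. Acta2 passed it between rescue and control (higher, against 6.84%). Between rescue and knockdown Gzmb passed it higher, against 2.33%, and S100a8 and S100a9 lower, for which the share of all genes is not given here. These genes were named after their values were seen. Of the defining markers Klrb1c, Ly6g, Ms4a1 and Krt7 were under 1 TPM in every mouse. The summed neutrophil markers were 101 to 236 TPM in Ad-Ctrl, 119 to 274 TPM in Ad-shmGULL and 89.2 to 141 TPM in the rescue group. The part of these cells, and of proliferation, in the values of the members was not tested.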

How the data were processed

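Liver RNA-Seq of 12 mice, 4 per group, was analysed, with groups and replicate numbers taken from the sample titles. Each sample was treated as 1 mouse, so p-values measure the spread between these samples. The authors deposited the values as TPM. Per the paper's methods and the submitters' processing notes, reads were trimmed with fastp 0.23.2, checked with FastQC 0.11.8, aligned with HISAT2 2.2.1.0 to GRCm38.p6 and counted on GENCODE VM24 genes, with featureCounts (Subread 2.0) among the tools named. The TPM total is 1000000 in every sample, so depth and the precision it gives are unknown, and 24575 of 55385 features are at 0 in every mouse.

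Differences on the log2(TPM + 1) scale were tested with limma 3.58.1 under R 4.3.3, in 1 model of the 3 groups without covariates, with a mean-variance trend, for the 16378 features with a mean of at least 1 TPM, and p-values were adjusted by Benjamini-Hochberg over all of them. The same fit of all groups shares 1 estimate of spread. A call is an adjusted p under 0.05. Beside the 10 members, the text names from each gene list up to 4 called genes, or otherwise the largest rise and fall after knockdown, except where said. Members and lists were chosen with earlier results of these data known. Alternatives were median-of-ratios scaling, a pseudocount of 0.1, no filter, only the 2 groups compared, a replicate block and leaving out each mouse. The replicate numbers share no stated source, and same-numbered mice of different groups did not deviate together (correlation over 0.1 in 2 of 12 pairs). Promoter sequences and gene positions are from RefSeq on GRCm38.p6, searched with Python 3.11.15, and figures were drawn with matplotlib 3.10.9. The proteins were not used here.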

Additional observations from a re-analysis of the deposited data

How the results depend on the processing

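The direction of each called member held under every alternative, but the number of calls at an adjusted p under 0.05 depended on the mice and the scaling. The members called after knockdown were 2 with median-of-ratios scaling and 0 with only the 2 groups compared, and ran from 0 to 3 over the fits that left out a mouse. Those past the study's threshold ran from 2 to 6 after knockdown and from 1 to 2 between rescue and knockdown when a mouse was left out. Between rescue and control, 0 members were called with median-of-ratios scaling, with no filter and with the replicate block, 5 with only the 2 groups compared, and 0 to 4 without a mouse. The replicate block, for numbers that do not pair the mice, thus lost 1 call among the members. Calls over all 16378 genes changed as well. With median-of-ratios scaling they numbered 683 after knockdown and 11 between rescue and control, against 529 and 352 as deposited. The number of all genes called under the other alternatives is not given here, so these counts do not single out the members. For the further p53 targets after knockdown, 1 was called with no filter and 0 with only the 2 groups (0 to 8 without a mouse). Between rescue and control, 1 was called with median-of-ratios scaling, 0 with no filter, 16 with only the 2 groups and 3 with the replicate block (0 to 15 without a mouse). For proliferation, 0 was called after knockdown with no filter and with only the 2 groups (0 to 9 without a mouse), and between rescue and control 0 with median-of-ratios scaling, 0 with no filter, 13 with only the 2 groups and 2 with the replicate block (0 to 22 without a mouse). Alternatives for these last 2 lists were chosen after seeing the data.

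Some signs turned. With median-of-ratios scaling the log2 fold change became -0.0271 for Cdkn1a, -0.00967 for Btg2 and -0.0638 for Bax between rescue and knockdown, and -0.16 for Btg2 and -0.0596 for Trp53inp1 between rescue and control. Over the fits without a mouse, Btg2 ran from -0.15 to 0.0910 after knockdown, from -0.0507 to 0.18 between rescue and knockdown and from -0.0701 to 0.13 between rescue and control. Between rescue and knockdown, Cdkn1a ran from -0.20 to 0.24, Gadd45b from -0.31 to 0.10 and Bax from -0.0507 to 0.0821. The cause was not tested. Read depth is unknown, which limits what can be said of the low levels of Gadd45a and Gadd45b.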

Other observations

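Other stress programs that share members with the p53 response were measured with gene lists of their own. Of 13 tested genes of the integrated stress response, through which Sesn2 and Gadd45a can also be induced, 0 had an adjusted p under 0.05 in any comparison (limma), and 0 passed the study's threshold. The median log2 fold change of the list was 0.014 after knockdown, against 0.087 for all genes. The largest rise and fall were in Fgf21, a fasting hormone of the liver, at 0.87 (limma adjusted p = 0.252), and Asns, asparagine synthetase, at -0.87 (limma adjusted p = 0.454). Of 14 immediate early genes, a class to which Btg2 also belongs, 0 had an adjusted p under 0.05 in any comparison, and the median was -0.09 after knockdown, with Ier3 at 0.48 and Egr1 at -0.66. The study's threshold was passed by 1 of them, higher, between rescue and knockdown, against 2.33% of all genes. Of 9 genes that respond to glucocorticoids, 0 had an adjusted p under 0.05, with Mt2, a metallothionein, at 0.99 (limma adjusted p = 0.106) and Tat, a tyrosine-degrading enzyme, at -0.80 (limma adjusted p = 0.131) after knockdown. By the study's threshold 2 of the 9 were higher and 1 lower after knockdown, against 5.35% and 2.30% of all genes. Between rescue and control 1 was lower, against 0.641%.

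Over the 12 mice, the tested genes whose log2(TPM + 1) was most like that of Ccng1 were Capn2 (Pearson's r 0.991), Ctnnb1 (0.985) and the p53 target Eda2r (0.984). For Trp53inp1 they were Bfar (0.931), Ryk (0.910) and Wipi2 (0.898). These are descriptions over 12 mice in 3 groups, the highest of 16378 genes each, and carry no test.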
